A study of Homo sapiens with 6 samples.

Results

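The expression of 10 keratin genes was followed across 6 RNA-seq libraries of HCT-116, a human colon carcinoma cell line. The 10 members, KRT7, KRT8, KRT18, KRT19, KRT20, KRT23, KRT80, KRT5, KRT6A and KRT14, were taken by symbol from the 60546 genes of the deposited table. Of the libraries, 3 came from HCT-116-PMSCV-GOLPH3 cells, a stable line infected with a construct carrying GOLPH3 cDNA, and 3 from HCT-116-PMSCV-Vector cells, the stable line with the empty construct. All 6 samples are described as wild type HCT-116 cells grown in DMEM with 10% fetal bovine serum and lysed in Trizol, and both lines carry the PMSCV construct. The study took cells from different generations of each line. The titles mark the GOLPH3 libraries P8, P12 and P13 and the Vector libraries P12, P11 and P13, and the meaning of the P number was not given in the sources used here. Nothing states that the libraries came from separately derived lines, so the p-values measure the spread between these samples only.

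Keratins are the intermediate filament proteins of epithelial cells. Every keratin filament is built from pairs of a type I (acidic) and a type II (basic to neutral) chain, so that members of both types are needed in the same cell. KRT8 and KRT18 form the basic pair of simple, single-layered epithelia, and the intestinal lining adds KRT19 and KRT20. KRT5 and KRT14 form the pair of the basal layer of stratified epithelia such as epidermis, where KRT6A is known as a keratin of wounded or rapidly dividing cells. KRT18, KRT19, KRT20, KRT23 and KRT14 are type I members, and KRT7, KRT8, KRT80, KRT5 and KRT6A are type II.

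The type I members can be compared in their own sequence. The end of the central rod is among the most conserved stretches of an intermediate filament protein, and its 45 coding bases are printed here from the GENCODE 29 transcripts on GRCh38, 5′ to 3′, with the bases that all 5 type I members share in capitals. Of the 45 bases 22 were shared.

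KRT18, exon 6 of 7, chr12:52952290-52952334, plus strand: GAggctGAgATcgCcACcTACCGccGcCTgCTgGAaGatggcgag
KRT19, exon 6 of 6, chr17:41523782-41523826, minus strand: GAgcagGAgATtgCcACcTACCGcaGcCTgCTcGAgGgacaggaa
KRT20, exon 6 of 8, chr17:40878150-40878194, minus strand: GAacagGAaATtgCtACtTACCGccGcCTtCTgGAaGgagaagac
KRT23, exon 7 of 9, chr17:40925359-40925403, minus strand: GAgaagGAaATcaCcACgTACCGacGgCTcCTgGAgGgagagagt
KRT14, exon 6 of 8, chr17:41583240-41583284, minus strand: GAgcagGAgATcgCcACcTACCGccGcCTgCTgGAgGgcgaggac

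KRT18 and KRT19 were identical at 32 of these 45 bases. Close copies bear on how the stratified members can be counted, so KRT16 is shown against KRT14, with the bases that differ from KRT14 in capitals.

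KRT16, exon 6 of 8, chr17:41610336-41610380, minus strand: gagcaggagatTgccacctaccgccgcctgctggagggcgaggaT

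KRT16 matched KRT14 at 43 of 45 bases. Over the whole transcript, 26.2% of the 75-base windows of KRT6A also occurred in another gene, most of them in KRT6C, and 10% of those of KRT14, most of them in KRT16. For KRT8 the share was 20%, led by the pseudogene KRT8P3, whereas no window of KRT19, KRT20 or KRT80 occurred elsewhere. KRT8 and KRT18 stand beside each other on chromosome 12 on opposite strands and share 525 exonic bases, which are 7.63% of the KRT8 exons and 16.3% of the KRT18 exons. The strand setting of the counting was not given in the sources used here, so reads from that overlap cannot be told apart. The summed rows of the 51 KRT8 pseudogenes held between 0.472% and 1.57% of the KRT8 value in the same library, and those of the 67 KRT18 pseudogenes between 0.300% and 0.927% of the KRT18 value.

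Values are normalized reads, that is reads per gene scaled by 1 factor for each library and not corrected for length. The libraries held 15708846 to 21900764 reads in genes, of which 4.41% to 9.97% were mitochondrial, and 3 reads corresponded to 2.47 to 3.29 normalized reads. In normalized reads, GOLPH3 itself was at 1629.5 (P8), 1272 (P12) and 1383 (P13) under the label GOLPH3, against 1968 (P12), 1892 (P11) and 1472 (P13) under the label Vector. The transcript was therefore not higher in the libraries labelled GOLPH3 (log2 difference -0.31 ± 0.27, SE, n = 3 per group; adjusted p = 0.609, limma), and the group names below are those of the labels. Among 10 markers of colon epithelium, EPCAM and CDH1 were read at 912 normalized reads or more in every library, whereas FABP1 was at 0 and VIL1, LGALS4, CEACAM5 and CDX1 did not exceed 10.3. CDX2 was read at 247 to 358 in the GOLPH3 libraries and 184 to 897 in the Vector libraries (log2 difference -0.52, limma adjusted p = 0.636). The summed level of the 10 was 9209 to 9309 in the GOLPH3 libraries and 3574 to 5917 in the Vector libraries, and none of the 8 tested was called. Most of that sum was EPCAM and CDH1. A list of 10 genes known from HEK293 cells, an embryonic kidney line, differed between the groups. The list was chosen with earlier results of these data known, so its difference is not an independent result. Its summed level was 144 to 157 normalized reads in the GOLPH3 libraries and 6283 to 16082 in the Vector libraries. Of the 10, 8 were called lower, beside 4.12% of all genes tested, and IRS4, UCHL1 and NEFM were at 0 in all GOLPH3 libraries. The genes not called were PAX2 and LHX1. PAX2 was at 112 to 134 in GOLPH3 and 88.7 to 148 in Vector (log2 difference 0.17, limma adjusted p = 0.853). PAX2 made up most of the GOLPH3 sum of the list. LHX1 was at 0 in GOLPH3 and did not exceed 3.09 in Vector. The part of these marker differences in the keratin results was not tested. Fibroblast markers, nearly all COL1A1, summed to 824 to 1517 in GOLPH3 and 479.8 to 785 in Vector with DCN at 0, and immune markers to 0.825 to 20.3 and 24.1 to 60.9 with CD3E and HLA-DRA at 0. In RNA from whole cultures, fewer cells of a type and less RNA per cell cannot be told apart.

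Levels of different members were compared per kb of joined exons. For KRT8 these exons hold 6881 bases, beside 1687 in its coding transcript, so its level per kb depends on the length taken. KRT19 lay between 1624 and 12456 normalized reads per kb over the 6 libraries, KRT8 between 1980.2 and 10916, and KRT18 between 1744 and 6529.6. The order of these 3 genes changed between libraries, with KRT8 at 0.929 to 1.67 times and KRT19 at 0.931 to 1.91 times KRT18. Each stood among the 297 highest of 58367 genes in every library. KRT80 followed with 65.2 to 1747 and KRT7 with 9.10 to 503 normalized reads per kb. The stratified members were lower, with 3.84 to 29.95 for KRT14, 1.47 to 18.2 for KRT6A and 0 to 3.98 for KRT5. Within each library KRT80 lay below KRT8, KRT18 and KRT19, KRT7 lay below KRT80 (ratio 0.140 to 0.314), and KRT14 lay below KRT7. The order of the stratified members changed between libraries. KRT6A exceeded KRT14 in the Vector library at P11 (7.86 against 3.84), and KRT5 exceeded KRT6A in the Vector library at P13 (2.60 against 1.47). No read of KRT20 or KRT23 was counted in any library, which allows up to 2.47 to 3.29 normalized reads of each. The 3 stratified members together reached 0.0589% to 0.240% of the summed simple members KRT7, KRT8, KRT18, KRT19 and KRT20 per kb. KRT8, KRT18 and KRT19 were thus the abundant keratins in both lines, and KRT20, the keratin of mature enterocytes, was not detectable at this depth.

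**Figure D1:**
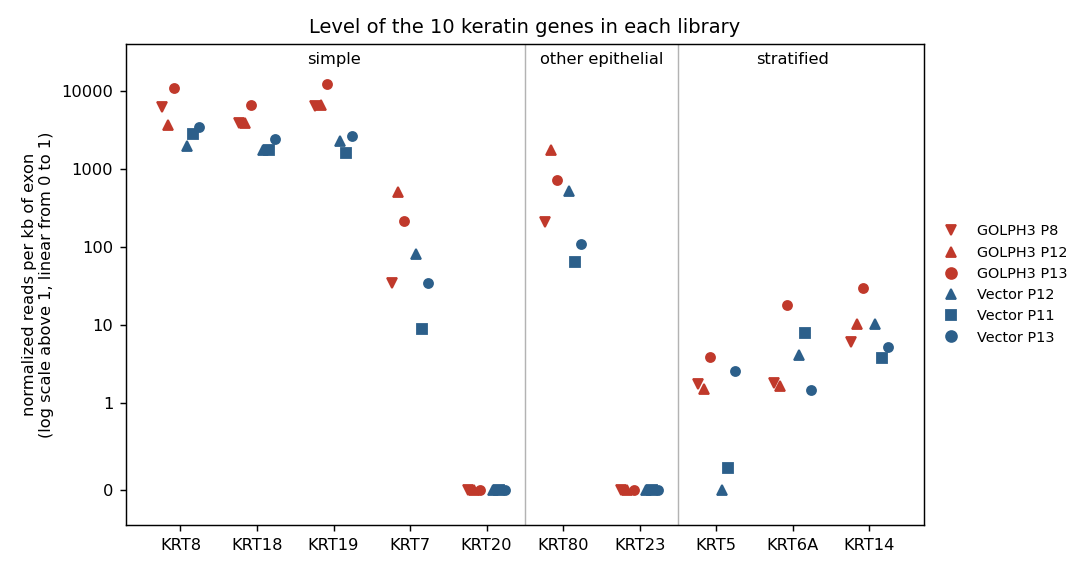
Normalized reads per kb of exon (vertical axis, logarithmic above 1 and linear below) of the 10 members in each of the 6 libraries, with red for GOLPH3, blue for Vector and the marker shape for the P number. KRT8, KRT18 and KRT19 lie at 1624 or more in every library, the stratified members lie below 30, and KRT20 and KRT23 lie at 0.

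The comparison of the libraries labelled GOLPH3 with those labelled Vector asked which keratins differ between the lines. Of the 10 members, 8 reached a value of 1 or more in 3 or more libraries and were tested, and KRT20 and KRT23 were not. KRT18 and KRT19, both type I partners of KRT8, were called higher in the GOLPH3 libraries at an adjusted p under 0.05, and no member was called lower. Over all 26536 genes tested, 5.07% were called, 0.953% higher and 4.12% lower. With no adjustment, 5 of the 8 had a p under 0.05 and a log2 difference over 1, all higher in GOLPH3, namely KRT7, KRT8, KRT18, KRT19 and KRT80, beside 5.93% of all genes in that direction. All 8 tested members had a positive log2 difference, with a median of 1.55 beside 0.02 over all genes tested.

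KRT19, the smallest keratin, had 14821, 15634 and 29097 normalized reads in the GOLPH3 libraries at P8, P12 and P13 and 5292, 3794 and 6139 in the Vector libraries at P12, P11 and P13. Every GOLPH3 library lay above every Vector library. The log2 difference was 1.92 ± 0.34 (SE, n = 3 per group), a 3.80-fold difference with a 95% interval of 1.18 to 2.66 on the log2 scale (limma adjusted p = 0.0044). Within the P12 libraries it was 1.56 and within the P13 libraries 2.24. The call held when any single library was left out, with adjusted p between 0.0044 and 0.0265.

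KRT18, the type I partner of KRT8, had 12563, 12693 and 21012 normalized reads in the GOLPH3 libraries and 5661, 5611 and 7719 in the Vector libraries, in the same order of libraries. The groups again did not overlap, and within each group the P13 library was the highest. The log2 difference was 1.26 ± 0.31 (SE, n = 3 per group; limma adjusted p = 0.0363), or 1.16 within P12 and 1.44 within P13. This call was less steady than that of KRT19. It held without the GOLPH3 library at P8 (adjusted p = 0.039) and was lost on leaving out any other library, with adjusted p of 0.0549 and 0.159 without the GOLPH3 libraries at P12 and P13 and 0.195, 0.094 and 0.0615 without the Vector libraries at P12, P11 and P13.

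KRT8, the type II member of the simple pair, had 42608, 25226 and 75110.1 normalized reads in the GOLPH3 libraries and 13626, 19434 and 23728 in the Vector libraries. The groups did not overlap, but the GOLPH3 values spread 2.98-fold, and the GOLPH3 library at P12 stood 1.06-fold above the highest Vector library. The log2 difference of 1.23 ± 0.41 (SE, n = 3 per group) did not pass the threshold (limma adjusted p = 0.125, 95% interval 0.34 to 2.12). DESeq2 on the recovered reads, which called 2.63% of genes higher, called it (adjusted p = 0.0234), edgeR, which called 1.48% higher, did not (adjusted p = 0.0892), and without the GOLPH3 library at P12 the limma fit called it with a log2 difference of 1.62 (adjusted p = 0.0416). KRT8, KRT18 and KRT19 were the 3 of 8 tested members whose groups did not overlap in the direction of higher values in GOLPH3, a pattern shown by 9.2% of all genes tested. For each of them an exact two-sided permutation test gave p = 0.1, the smallest that 3 libraries against 3 can give.

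KRT7 and KRT80, type II keratins of glandular and other epithelia, followed another order of libraries. KRT80 had 911, 7600.4 and 3162 normalized reads in the GOLPH3 libraries at P8, P12 and P13 and 2309, 284 and 479.7 in the Vector libraries at P12, P11 and P13. KRT7 had 144, 2059.9 and 883 in the GOLPH3 libraries and 332, 37.2 and 142 in the Vector libraries. In both groups the P12 library was the highest for both genes, and the GOLPH3 library at P8 lay below the Vector library at P12, so that the groups overlapped. The log2 difference was 2.04 ± 0.78 for KRT80 (limma adjusted p = 0.188) and 2.39 ± 0.89 for KRT7 (limma adjusted p = 0.176), each SE with n = 3 per group. These differences were larger than that of KRT18 and did not pass the test, as values within a group spread 8.34-fold and 8.14-fold for KRT80 and 14.3-fold and 8.93-fold for KRT7 in GOLPH3 and Vector. Compared at the same P number, KRT7 was higher in GOLPH3 by 2.63 on the log2 scale at both P12 and P13, and KRT80 by 1.72 and 2.72. Without the GOLPH3 library at P8 both genes were called (adjusted p = 0.00968 for KRT7 and 0.0269 for KRT80), and KRT80 also without the Vector library at P12 (adjusted p = 0.033).

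**Figure D2:**
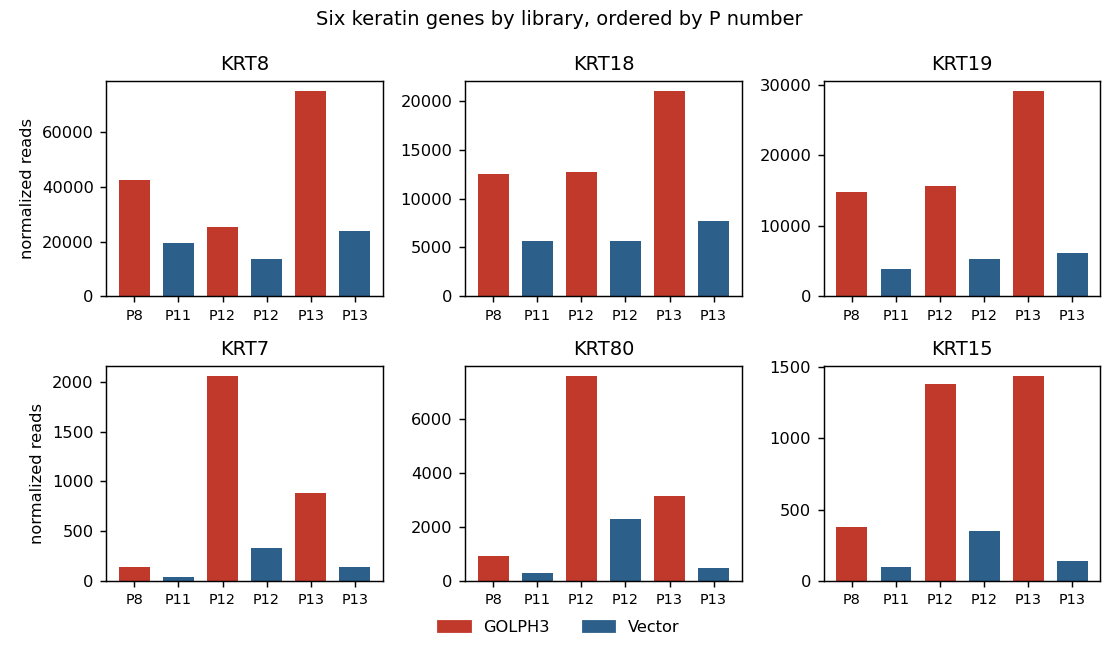
Normalized reads (vertical axes, linear from 0) of KRT8, KRT18, KRT19, KRT7, KRT80 and KRT15 in the 6 libraries, ordered by P number, with red bars for GOLPH3 and blue bars for Vector. KRT8, KRT18 and KRT19 are highest in the GOLPH3 library at P13, with 75110.1, 21012 and 29097, whereas KRT7 and KRT80 are highest in the GOLPH3 library at P12, with 2059.9 and 7600.4.

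The libraries were ordered identically by KRT18 and KRT19 (Spearman's rho 1, Pearson's r 0.99 on the log2 scale over 6 libraries) and identically by KRT7 and KRT80 (Spearman's rho 1, Pearson's r 0.97). KRT8 followed KRT18 (r 0.92) and KRT19 (r 0.87) more closely than KRT80 (r 0.23) or KRT7 (r 0.31). These values describe the same 6 libraries, which also share the difference between the groups, and carry no test. Among 12661 other genes with a mean of at least 50 normalized reads, those with the most similar pattern to KRT8 were FBXL18, PEX6, PKM, PTPN6 and BMP8A, with r between 0.989 and 0.996, and KRT18 ranked 230th and KRT19 513th. KRT20 had no variation, so no such list exists for it.

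The stratified members were low. KRT5 fell below 3 reads in the Vector libraries at P12 and P11, whereas KRT14 and KRT6A had 5 or more reads in every library. KRT14 had 14.0, 23.9 and 68.3 normalized reads in the GOLPH3 libraries and 23.7, 8.76 and 12.01 in the Vector libraries. KRT5, its type II partner, had 7.51, 6.60 and 17.1 in GOLPH3 and 0, 1.10 and 11.2 in Vector. KRT6A had 5.37, 4.95 and 53.4 in GOLPH3 and 12.4, 23.0 and 4.29 in Vector. All 3 were highest in the GOLPH3 library at P13, and the groups overlapped for each. None was called, with log2 differences of 1.01 ± 0.66 for KRT14 (limma adjusted p = 0.475), 1.84 ± 0.88 for KRT5 (limma adjusted p = 0.311) and 0.09 ± 0.89 for KRT6A (limma adjusted p = 0.975). For KRT6A the 95% interval of -1.85 to 2.04 covers both directions, and the difference became -0.95 without the GOLPH3 library at P13 and -0.49 without the Vector library at P13. The 7 stratified epithelium markers in the table summed to 379 to 947 in GOLPH3 and 466 to 583 in Vector and none of the 5 tested was called. Most of that sum was KRT10, while TP63 reached 8.54 normalized reads, DSG3 reached 4.12 and KRT1 was at 0. The summed simple members thus lay 417 to 1698 times above the summed stratified members per kb within a library. That factor came from KRT8, KRT18 and KRT19 and does not hold for each simple member. KRT20 was at 0, and in the Vector library at P11 KRT7 had 9.10 per kb beside 7.86 for KRT6A. Between the groups, 2 of 4 tested simple members and 0 of 3 stratified members passed the test, a difference between the sets that was not tested.

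Because filaments need both types, the summed type II level was set against the summed type I level per kb in each library. The ratio was 0.628, 0.556 and 0.625 in the GOLPH3 libraries at P8, P12 and P13 and 0.643, 0.862 and 0.715 in the Vector libraries at P12, P11 and P13. The log2 ratio of type I to type II was 0.73 ± 0.10 in GOLPH3 and 0.44 ± 0.21 in Vector (SD, n = 3 each) per kb. Which type was the larger depended on the scale: without the division by length the type II sum was 1.23 to 2.101 times the type I sum in every library, and the log2 ratio was -0.54 ± 0.21 in GOLPH3 and -0.82 ± 0.25 in Vector. KRT18 and KRT19 made up at least 99.7% of the type I sum. KRT8 made up 97.2% to 61.9% of the type II sum, the lowest share being that of the GOLPH3 library at P12, where KRT7 and KRT80 together reached 38.0%. The ratio of KRT8 to KRT18 was 1.40 ± 0.41 in GOLPH3 and 1.39 ± 0.25 in Vector (SD, n = 3 each), a difference smaller than the spread in either group. The ratio of KRT19 to KRT18 was 1.63, 1.70 and 1.91 in the GOLPH3 libraries and 1.29, 0.931 and 1.10 in the Vector libraries, so that every GOLPH3 library lay above every Vector library. The 10 members together took 0.412%, 0.350% and 0.670% of all gene reads in the GOLPH3 libraries and 0.160%, 0.170% and 0.239% in the Vector libraries.

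Of 45 other keratin genes, 12 had no read in any library and 33 stayed below a mean of 10 normalized reads in both groups. KRT15, a type I keratin known from basal cells and stem cells of stratified epithelia, was the 1 of 18 tested that was called, a share near the 5.07% of all genes. Its call was in the higher direction, beside 0.953% of all genes called higher and 4.12% lower. It had 380.0, 1379.6 and 1439 normalized reads in the GOLPH3 libraries and 349.96, 94.2 and 136 in the Vector libraries, without overlap. Its log2 difference was 2.46 ± 0.57 (SE, n = 3 per group; limma adjusted p = 0.0251). The call was lost without the GOLPH3 libraries at P12 (adjusted p = 0.0711) or P13 (0.114) and without the Vector libraries at P11 (0.0536) or P13 (0.101). It was also lost with at least 1 normalized read in every library (0.0567), a pseudocount of 0.1 (0.0615) and the replicate number as a block (0.0864). The others at a mean of 10 or more were KRT9, KRT10, KRT13, KRT16, KRT17, KRT32, KRT222, KRT6B, KRT81, KRT83 and KRT86, and none of them was called. Their log2 differences lay between -1.62 for KRT222 and 2.62 for KRT86. The hair keratin KRT81, like KRT80, was higher in the P12 library than in the P8 or P11 library of its group, with 74.1, 1009.3 and 821 normalized reads in GOLPH3 and 245, 58.1 and 127 in Vector (log2 difference 1.69 ± 0.84, limma adjusted p = 0.33). KRT17, a keratin of basal and injured epithelia, had 94.5, 304 and 371 in GOLPH3 and 433, 114 and 114 in Vector, and its groups overlapped (log2 difference 0.31 ± 0.60, limma adjusted p = 0.840). KRT222, a type I keratin-like gene, was the 1 of the 18 with a negative difference in this fit (-1.62 ± 0.61, limma adjusted p = 0.184). Among the 11 protein-coding genes next to a member on its chromosome that were not members, 6 were tested and 1, KRT15, was called.

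**Figure D3:**
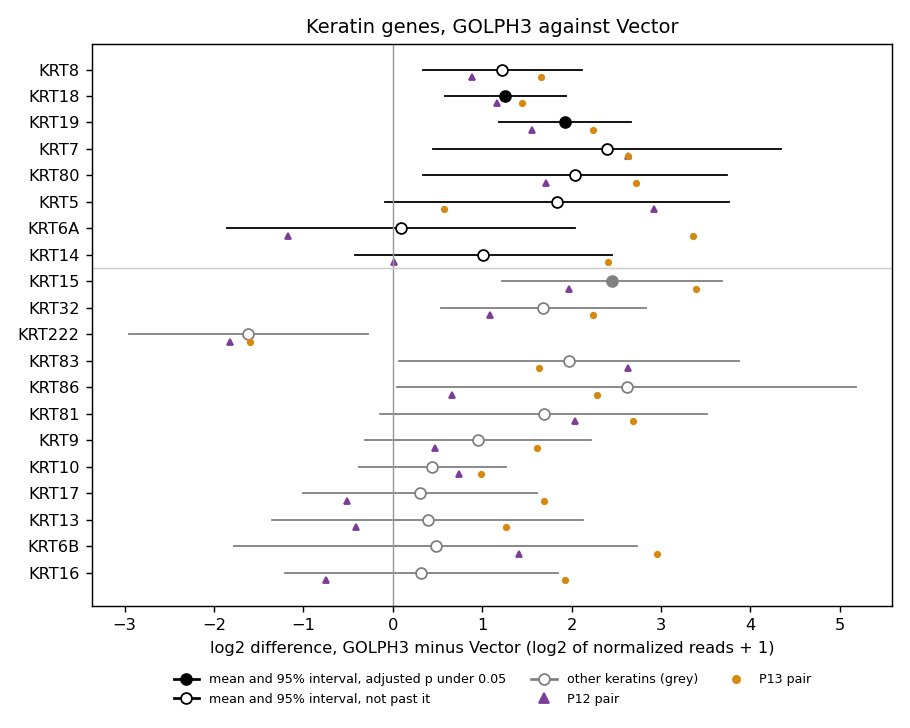
Log2 difference between the group means of log2(normalized reads + 1), GOLPH3 minus Vector (horizontal axis), with 95% intervals from limma, for the 8 tested members (black) and the 12 other keratins with a mean of at least 10 normalized reads (grey); filled circles passed an adjusted p of 0.05, and the small symbols give the difference within the P12 and P13 libraries. KRT18, KRT19 and KRT15 are filled, KRT222 lies below 0, and the P12 and P13 values fall on opposite sides of 0 for KRT6A, KRT13, KRT16 and KRT17.

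Keratin filaments are anchored at desmosomes by linker proteins and kept soluble by chaperones. Of 17 genes of such partners, all tested, 5 were called higher in GOLPH3 and none lower, beside 0.953% and 4.12% of all genes tested, and the median log2 difference was 1.00 beside 0.02. The 4 with the smallest p were 3 plakin-type linkers and a desmosomal plaque protein. PPL, or periplakin, had 2282, 2948 and 3427 normalized reads in the GOLPH3 libraries and 968, 547 and 755 in the Vector libraries (log2 difference 1.95 ± 0.31, limma adjusted p = 0.00194). EPPK1, or epiplakin, which binds KRT8 and KRT18 filaments, had 889, 933 and 1220.1 against 267, 307 and 422 (1.62 ± 0.31, limma adjusted p = 0.00713). For both genes the Vector libraries lay below 1000 normalized reads throughout. EVPL, or envoplakin, had 1773, 1328 and 2691 against 402, 561 and 742 (1.75 ± 0.34, limma adjusted p = 0.00979). PKP3, or plakophilin 3, had 1994, 3767 and 3861 against 1409, 600.3 and 1110.5 (1.65 ± 0.38, limma adjusted p = 0.0243). None of these 4 genes, which were chosen by their p, overlapped between the groups. Of the 17 partners, 8 were higher in GOLPH3 without overlap, beside 9.2% of all genes tested. JUP, the plaque protein plakoglobin, was the fifth called (1.35 ± 0.35, limma adjusted p = 0.0473). DSP, desmoplakin, which ties keratin filaments to the desmosome, was read at 4931 to 7102 normalized reads in all libraries and was not called (-0.17 ± 0.27, limma adjusted p = 0.797). PLEC, the linker plectin, named here after its values were seen, had 21691, 106787 and 58078 normalized reads in GOLPH3 and 24871, 6700.1 and 17943 in Vector, with the highest value of each group at P12 as for KRT7 and KRT80 (1.83 ± 0.58, limma adjusted p = 0.107). Of these 5, PPL was called whichever library was left out, EPPK1 was lost without the Vector library at P12 (adjusted p = 0.0784), EVPL without that library (0.0844) or the GOLPH3 library at P13 (0.0548), PKP3 without any but the GOLPH3 library at P8 or the Vector library at P12, with adjusted p up to 0.108, and JUP without any but the GOLPH3 library at P8. The count of partners called was 8 without the GOLPH3 library at P8, 3 without that at P12 and 2 without that at P13, and 3, 3 and 4 without the Vector libraries at P12, P11 and P13.

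Transcription factors and splicing regulators of epithelial genes were followed in the same way. Of 17 listed genes 15 were tested, 4 were called higher and none lower, beside 0.953% and 4.12% of all genes tested, and the median log2 difference was 0.82 beside 0.02. EHF, an ETS factor of epithelial cells, had 1664, 1046 and 619 normalized reads in the GOLPH3 libraries and 207, 210.3 and 115 in the Vector libraries (2.58 ± 0.40, limma adjusted p = 0.00188), and its call held without any single library. ELF3, a related epithelial ETS factor, had 2562, 3114 and 4446 against 1391, 841 and 1122.5 (1.58 ± 0.31, limma adjusted p = 0.00958), and lost its call without the GOLPH3 library at P13 (adjusted p = 0.0541). ESRP2, an epithelial splicing regulator, differed by 1.42 ± 0.29 (limma adjusted p = 0.0136) and OVOL1, a zinc finger factor of epithelial differentiation, by 1.49 ± 0.36 (limma adjusted p = 0.034). ESRP2 lost its call without any library but the GOLPH3 library at P8 or the Vector library at P11, and OVOL1 without any library but the GOLPH3 library at P8, with adjusted p up to 0.0851 and 0.184. TP63, the master factor of stratified epithelium, was not called (1.42 ± 0.73, limma adjusted p = 0.347). A positive difference was shown by 12 of the 15. TFAP2A was lower without overlap, with 520, 570 and 653 against 1152, 863 and 2037 (-1.13 ± 0.34, limma adjusted p = 0.0881). DESeq2 on the recovered reads, which called 6.05% of genes lower and 2.63% higher, called TFAP2A lower (adjusted p = 0.0240). In the other direction, GRHL2 was higher without overlap, with 832, 666 and 607 against 307, 404 and 185. Its log2 difference was 1.29 ± 0.35 (limma adjusted p = 0.0559), and DESeq2 called it higher (adjusted p = 0.0192). CDX2 was not called (-0.52 ± 0.49, limma adjusted p = 0.636).

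**Figure D4:**
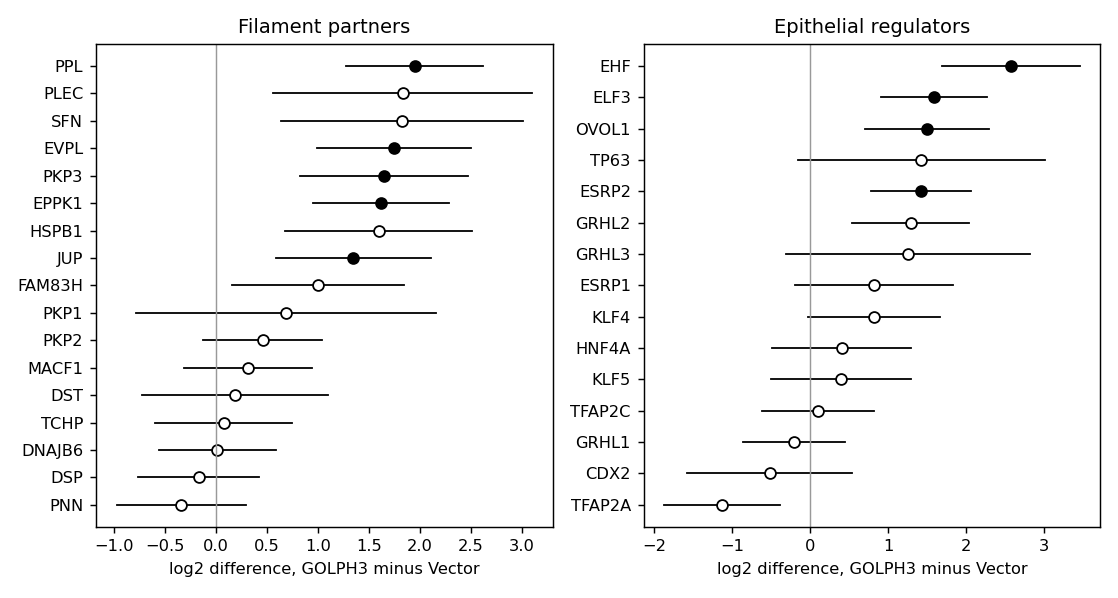
Log2 difference of log2(normalized reads + 1), GOLPH3 minus Vector (horizontal axes), with 95% intervals from limma, for the 17 filament partner genes (left) and the 15 tested epithelial regulators (right), sorted by difference; filled circles passed an adjusted p of 0.05. The filled circles, 5 on the left and 4 on the right, all lie above 0.

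Among intermediate filament genes other than keratins, the called genes were VIM, NEFL and NEFM, and they were lower in the GOLPH3 libraries. Of 13 listed genes 12 were tested, 3 were called lower and none higher, beside 4.12% and 0.953% of all genes tested, and the median log2 difference was -0.19 beside 0.02. A positive difference was shown by 5 of the 12. PRPH (1.22 ± 0.63, limma adjusted p = 0.35), NEFH (0.52 ± 0.62), DES (0.48 ± 0.52) and NES (-0.16 ± 0.40) were not called. VIM, the vimentin of mesenchymal cells, had 5.37, 41.2 and 11.7 normalized reads in the GOLPH3 libraries and 3407, 1653 and 3194 in the Vector libraries (-7.44 ± 0.59, limma adjusted p = 1.09e-05). The neurofilament genes NEFL and NEFM had 372, 383 and 742 and 346, 501 and 612 normalized reads in the Vector libraries. In the GOLPH3 libraries NEFM was at 0 throughout and NEFL did not exceed 0.825. These 3 genes are also on the list of HEK293 genes given above, so they are not a separate observation. LMNA, which encodes the nuclear lamins A and C of most cells, was not called by limma (1.20 ± 0.33, adjusted p = 0.0642). It had 11021, 13701 and 23962 normalized reads in GOLPH3 and 6406, 5846 and 7912 in Vector, without overlap. DESeq2 on the recovered reads, which called 2.63% of genes higher, called it higher (adjusted p = 0.0118).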

How the data were processed

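RNA-seq was run on 3 libraries of HCT-116-PMSCV-GOLPH3 and 3 of HCT-116-PMSCV-Vector cells, grouped by their titles. The submitters' processing notes name fastp 0.20.0, HISAT2 2.1.0, featureCounts 1.6.1, Cufflinks, DESeq2 and the build GRCh38; the strand setting, annotation and read length are not given in the sources used here. The values the authors deposited are a signal of normalized reads: in each library 99.98% or more were whole multiples of what 1 read is worth (tolerance 0.02 read), so whole reads were recovered as read counts. Of 60590 rows, 44 repeated an identifier and were added to it.

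The main test was limma 3.58.1 (R 4.3.3) with a mean trend on log2(value + 1), two-sided, on 26536 genes with at least 1 in at least 3 libraries, with Benjamini-Hochberg adjustment over all of them and a threshold of 0.05. Differences of low genes are understated by the pseudocount. edgeR 4.0.16, DESeq2 1.42.0, a pseudocount of 0.1, other filters, quantile normalization, blocks and left-out libraries were alternatives. Levels between genes used the joined exons of GENCODE 29, which held 96.4% of the identifiers. Detection limits of 3 reads cover counting error only. Scripts were tested on simulated data. Sequences of the type II members are not reported here.

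The members, gene lists and tests were chosen with earlier results of these data known. Named were all members, other keratins with a mean of at least 10 in either group, the 4 genes of smallest p of the partner, regulator and other filament lists, the 5 genes most like KRT8 and KRT20, and GOLPH3; neighbours were counted. PLEC, JUP, DSP, PRPH, NEFH, DES, NES and, as regulators, TP63, TFAP2A, GRHL2 and CDX2 were named outside this rule, after their values were seen.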

Additional observations from a re-analysis of the deposited data

Results flagged for a closer look

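Among the 10 members and the 12 other keratins named, 4 differed in opposite directions at P12 and at P13, and the difference between these numbers was not tested, since each number has 1 library of each group. For KRT6A the log2 difference, GOLPH3 minus Vector, was -1.17 within P12 and 3.36 within P13. For KRT16 it was -0.75 and 1.93, for KRT17 it was -0.51 and 1.69, and for KRT13 it was -0.41 and 1.26. KRT6A, KRT16 and KRT17 are known as keratins that injured or rapidly dividing stratified epithelium makes together. KRT16 had 166.7 and KRT17 had 433 normalized reads in the Vector library at P12, the highest value of either gene in any library, whereas KRT6A and KRT13 were highest in the GOLPH3 library at P13 with 53.4 and 96.1. KRT6A shares sequence with KRT6C, and KRT16 with KRT14, as given above.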

How the results depend on the processing

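KRT19 was called under every alternative at an adjusted p under 0.05 except without the libraries at P12 (adjusted p = 0.0746, limma) and without those at P13 (0.0688), and KRT18 was called in 6 of its 16 refits. The count of 2 members called became 1 (KRT19) with quantile normalization, with at least 1 normalized read in every library and with a pseudocount of 0.1, 5 with the threshold of unadjusted p under 0.05 and a log2 difference over 1 (past which 14.2% of all genes lay in either direction), 5 with the P number as a block, 0 without the libraries at P12 and 0 without those at P13, and 1 to 4 on leaving out single libraries. The count of 5 partner genes became 3 with at least 1 in every library, 3 with the pseudocount of 0.1, 8 with DESeq2, 9 with the P number block, 8 with the unadjusted threshold, 1 without the P12 libraries, 0 without the P13 libraries, and 2 to 8 on leaving out single libraries. The P number block compares only the P12 and the P13 pairs with 1 residual degree of freedom and called 22.9% of all genes. The replicate numbers of the titles did not pair the libraries: deviations of libraries with the same replicate number correlated at -0.23, -0.15 and 0.26. The value of 0.26 belongs to replicate 3, which is also the P13 pair, and only there did a library correlate best with its own replicate number. The P12 libraries, which differ in replicate number, also correlated at 0.26. Each P12 and P13 library correlated best with the library of its own P number in the other group. The highest value, 0.33, was between the GOLPH3 library at P8 and the Vector library at P11, which share neither number. Pairing by P number was not tested, and the main fit used no pairing. With the replicate block 2 members and 4 partners were called, and 1081 genes in all beside 1346. The 1346 calls over all genes, 253 higher and 1093 lower, became 603 higher and 1388 lower with DESeq2, 405 in all with at least 1 in every library, 256 and 130 without the P12 and the P13 libraries, and 459 to 1528 on leaving out single libraries. The balance of type I to type II members, a log2 ratio 0.29 higher in GOLPH3 on the log2 scale, was 0.27 in normalized reads and 0.17 to 0.38 on leaving out single libraries.

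Of 142 refitted values of the tested members, 4 turned the direction. All were of KRT6A, which ranged from -0.95 to 0.64 on leaving out single libraries and was -0.95 without the GOLPH3 library at P13, -0.49 without the Vector library at P13, -1.54 without both and -1.17 within P12. KRT13 ranged from -0.50 to 1.19 on leaving out single libraries, and was -0.044 without the P13 libraries and -0.41 within P12. KRT16 ranged from -0.14 to 1.06 and KRT17 from -0.069 to 0.94 on leaving out single libraries, and they were -0.48 and -0.39 without the P13 libraries and -0.75 and -0.51 within P12. KRT6B ranged from -0.54 to 1.86 on leaving out single libraries, and was -0.36 with the pseudocount of 0.1 and -0.75 without the P13 libraries. The cause was not tested. With 3 libraries a group, the spread between libraries limits the comparison of the members not called, and for KRT20 and KRT23, with no read, the depth sets the detection limit.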
